A study of Rattus norvegicus with 18 samples.

Results

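The 10 genes of fatty acid synthesis and lipid uptake described here in the perinatal rat lung are Scd, Fasn, Acaca, Acly, Elovl6, Fads1, Fads2, Lpl, Vldlr and Srebf1. They were chosen by name. Every probe set that the array's annotation assigns to 1 of these 10 genes was taken, which gave 17 probe sets, 1 to 4 per gene. All 17 passed the filter on low signals, so they stand among 21675 probe sets tested, and the 10 genes among 11590 named genes. Wistar rat lungs were collected at 3 stages: fetal day 19 (FD19, the canalicular lung), fetal day 22 (FD22, the saccular lung before birth) and 5 h after birth (P1, the saccular lung of the newborn). Each stage had 3 lysates, numbered 1 to 3, from separate litters, and the labels name no mutation, drug or other treatment in any group. From each lysate both total RNA and polysomal RNA, the RNA of large polysomes with more than 7 ribosomes per mRNA, were hybridised, so that 18 arrays formed 6 groups of 3. Fetuses came by Cesarean section and newborns by vaginal birth, so age, air breathing and route of delivery cannot be told apart in any comparison with P1.

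Fatty acid synthesis starts in the cytosol, where Acly splits citrate into acetyl-CoA, Acaca carboxylates it to malonyl-CoA and Fasn builds palmitate from both. Palmitate is the fatty acid of dipalmitoyl phosphatidylcholine, the main surface-active lipid of pulmonary surfactant, which alveolar type II cells make in growing amounts before birth. Elovl6 lengthens palmitate to stearate, Scd puts a double bond into saturated fatty acids, and Fads1 and Fads2 desaturate polyunsaturated fatty acids. Lung cells also take up fatty acids from blood lipoproteins, whose triglycerides Lpl hydrolyses at the capillary wall and which Vldlr binds. Srebf1 encodes a membrane-bound transcription factor that, once released, activates many genes of fatty acid synthesis.

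Promoter windows of some members whose signals rose or fell are shown so that the letters upstream of them can be compared. They are the 250 bases before a RefSeq gene start in the rat assembly GRCr8, read 5′ to 3′ on the gene's strand. RefSeq windows were at hand for 6 of the 10 genes, in 7 windows. Capitals mark the CCAAT box (CCAAT) and the GC box (GGGCGG) on either strand, sequences known to bind the transcription factors NF-Y and Sp1, and no marked base belonged to more than 1 match. The first 4 windows belong to Scd, Acly and the 2 starts of Srebf1, genes whose polysomal signal rose between FD19 and FD22, Acly falling again across birth. The last 2 belong to Vldlr and Fads1, which fell across birth, although 1 Vldlr probe set, 1392924_at, had also risen to FD22.
Scd: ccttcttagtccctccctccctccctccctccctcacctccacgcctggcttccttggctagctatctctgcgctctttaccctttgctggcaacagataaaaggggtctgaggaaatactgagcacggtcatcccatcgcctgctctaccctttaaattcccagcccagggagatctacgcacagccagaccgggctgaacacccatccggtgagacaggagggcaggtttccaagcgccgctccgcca
Acly: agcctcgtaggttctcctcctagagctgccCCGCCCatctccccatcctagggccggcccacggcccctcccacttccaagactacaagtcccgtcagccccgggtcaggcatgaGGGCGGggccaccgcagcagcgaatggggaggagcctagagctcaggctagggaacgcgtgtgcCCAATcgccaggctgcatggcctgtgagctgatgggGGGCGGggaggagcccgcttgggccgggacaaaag
Srebf1, upstream start: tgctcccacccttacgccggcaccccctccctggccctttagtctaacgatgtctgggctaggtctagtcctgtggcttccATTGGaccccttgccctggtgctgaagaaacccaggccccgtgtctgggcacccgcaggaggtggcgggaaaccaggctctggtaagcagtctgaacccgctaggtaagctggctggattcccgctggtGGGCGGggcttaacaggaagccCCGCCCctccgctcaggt
Srebf1, downstream start: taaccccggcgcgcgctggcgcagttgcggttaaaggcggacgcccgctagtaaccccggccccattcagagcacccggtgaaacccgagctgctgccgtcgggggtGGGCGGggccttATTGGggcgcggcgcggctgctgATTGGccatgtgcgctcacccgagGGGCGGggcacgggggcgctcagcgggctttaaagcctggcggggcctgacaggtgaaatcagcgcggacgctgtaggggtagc
Vldlr: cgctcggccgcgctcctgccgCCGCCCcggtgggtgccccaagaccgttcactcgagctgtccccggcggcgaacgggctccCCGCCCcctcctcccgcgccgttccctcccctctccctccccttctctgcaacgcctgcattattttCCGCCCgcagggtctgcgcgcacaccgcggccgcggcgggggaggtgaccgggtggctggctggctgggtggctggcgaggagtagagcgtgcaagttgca
Fads1: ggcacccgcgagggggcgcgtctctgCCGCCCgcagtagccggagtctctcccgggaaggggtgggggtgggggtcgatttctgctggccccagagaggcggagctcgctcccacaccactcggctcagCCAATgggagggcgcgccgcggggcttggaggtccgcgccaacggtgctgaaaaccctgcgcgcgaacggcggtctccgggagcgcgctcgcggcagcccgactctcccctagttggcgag
The windows lie at chr1:253231732-253231981 for Scd (minus strand), chr10:85963632-85963881 for Acly (minus), chr10:45529165-45529414 and chr10:45519011-45519260 for Srebf1 (minus), chr1:234240436-234240685 for Vldlr (plus) and chr1:216252442-216252691 for Fads1 (plus). Acly held 3 GC boxes and 1 CCAAT box. The downstream start of Srebf1 held 2 of each, and its upstream start held 2 GC boxes and 1 CCAAT box. Vldlr held 3 GC boxes, Fads1 had 1 of each, and the Scd window held neither motif. The window of Fads2, which is not printed, held 1 GC box and no CCAAT box. Among all 33469 RefSeq windows of this length, 34.0% held a CCAAT box and 30.5% a GC box. The sterol regulatory element TCACNCCAC, present in 0.974% of all windows, and the E-box CACGTG, present in 5.59%, were not found in any of the 7 member windows. A match only describes the letters of this window.

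Lung identity held in all 18 arrays: all 7 markers of alveolar type II cells were measured, with Sftpc between 3836 and 9139. Their summed signal in total RNA was 11866 to 12707 at FD19, 22899 to 28166 at FD22 and 23906 to 26839 at P1. Lysate 2 of FD22 stood apart, because both of its arrays held liver transcripts. Its albumin gene (Alb) signals were 5662 in total and 4891.5 in polysomal RNA, against 31.6 to 147 in the other 16 arrays, and its alpha-fetoprotein gene (Afp) signals were 1462 and 1443, against 0.9 to 51.2. The 7 hepatocyte markers on the array, 5 of which passed the filter, summed to 9359.7 and 8821 there and to 122 to 402 elsewhere, although Apob, also a liver gene, was not raised (46.6 and 36.1, others 27.5 to 65.7). Member results and list counts that its removal changed are given without this lysate as well. Heart and skeletal muscle markers, 6 of 7 on the array, also varied between lysates, with sums from 548 to 4019.7. All arrays had a 2% trimmed mean of 150.0, and their medians lay between 51.6 and 73.5. The 3 arrays per group limit the precision. Array signals of different probe sets are not comparable as levels, so genes are compared only by their changes.

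A change is given on the log2(signal + 5.5) scale, with its standard error (SE) from limma, which fits a linear model to every probe set, and with n = 3 arrays per group. A change was called at an adjusted p under 0.05 (Benjamini-Hochberg over 21675 probe sets). The direct comparison of FD22 with FD19 asked what changed as the fetal lung matured. In total RNA, 5 of the 17 probe sets rose and 2 fell, where 16.2% of all probe sets were called (8.42% higher and 7.82% lower). In polysomal RNA 8 rose and 1 fell, where 15.9% of all were called (8.22% higher and 7.7% lower). These calls covered 4 genes higher and 1 lower in total RNA, and 6 genes higher and 1 lower in polysomal RNA. The median change of the 17 probe sets was 0.27 in total and 0.36 in polysomal RNA, against 0.01 and -0.02 for all probe sets tested. Arrays of both stages did not overlap for 11 of the 17 in total RNA (33.3% of all probe sets) and for 10 in polysomal RNA (32.3%). Without the lysate that held liver transcripts, 6 probe sets were called in total RNA and 11 in polysomal RNA. In whole-lung RNA a change in the number of cells of a type and a change of RNA per cell cannot be told apart.

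Across birth, from FD22 to P1, the calls ran downward. In total RNA 0 of the 17 probe sets rose and 3 fell, where 3.97% of all were called (2.21% higher and 1.76% lower). In polysomal RNA 0 rose and 5 fell, where 8.34% were called (3.79% higher and 4.55% lower). The falls were in Vldlr and Fads1 in total RNA and in Vldlr, Fads1 and Acly in polysomal RNA. The median change was -0.39 in total and -0.52 in polysomal RNA, against -0.05 and -0.03 for all probe sets. Arrays of both stages did not overlap for 7 of the 17 in total RNA (20.8% of all probe sets) and for 8 in polysomal RNA (23.0%). When FD22 lysate 2 was left out, 2 and 4 probe sets were called, all of them lower at P1. Over the whole interval, from FD19 to P1, 3 probe sets rose and 5 fell in total RNA, where 26.2% of all were called (12.4% higher and 13.7% lower). In polysomal RNA 4 rose and 5 fell, where 28.9% were called (13.1% higher and 15.8% lower). Arrays did not overlap for 10 of the 17 in total RNA (42.7% of all) and for 10 in polysomal RNA (43.6%). The comparisons share groups, so a high or low FD22 group moves both of the first.

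**Figure D1:**
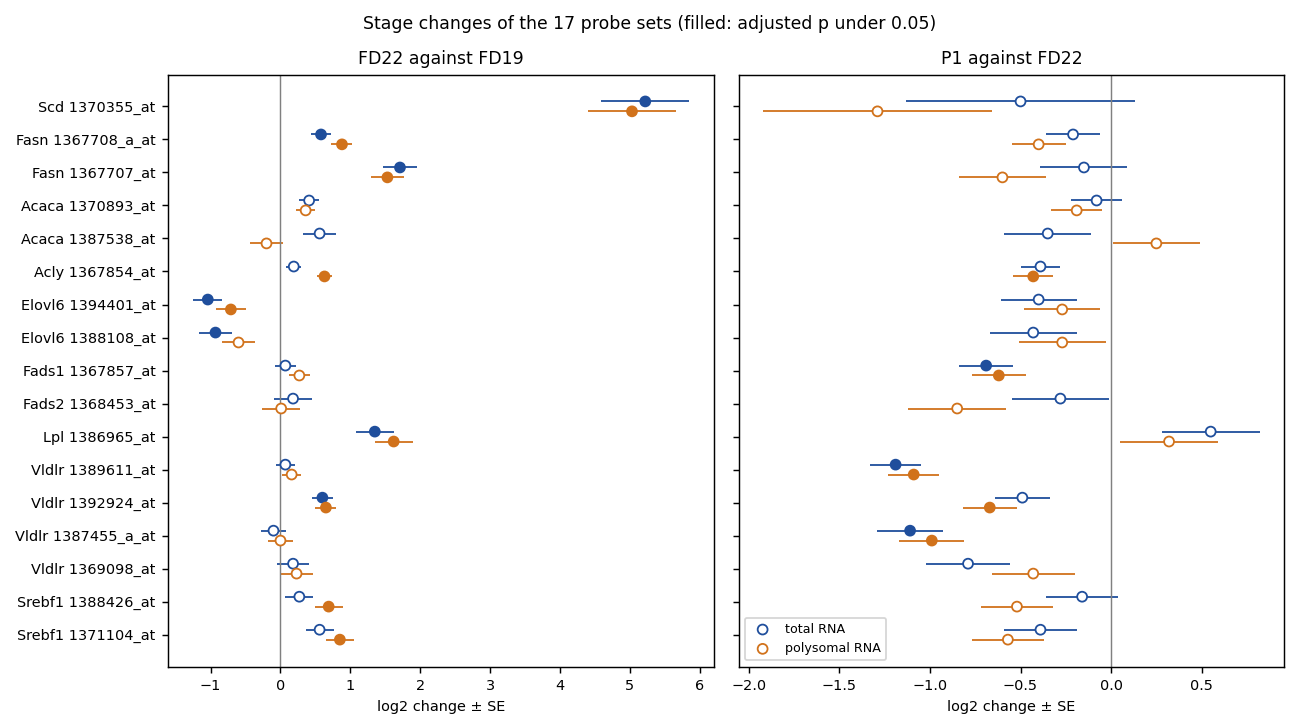
Log2 change with its SE for each of the 17 probe sets, FD22 against FD19 (left) and P1 against FD22 (right), in total RNA (blue) and polysomal RNA (orange), n = 3 arrays per group. Filled circles had an adjusted p under 0.05. Scd lies far to the right at FD22, the Elovl6 probe sets lie to the left, and the filled circles across birth, which belong to Fads1, Vldlr and Acly, all lie left of 0.

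Srebf1, the transcription factor gene of the group, was higher in polysomal RNA at FD22 than at FD19. Its brighter probe set, 1388426_at, read 268, 235 and 260.2 at FD19, 354.5, 314 and 262 at FD22 and 380.3, 259.9 and 211 at P1 in total RNA, and 240.3, 208 and 234 at FD19, 417.5, 273 and 442 at FD22 and 301, 217 and 255 at P1 in polysomal RNA. The polysomal arrays of FD19 lay below all those of FD22, while in total RNA the stages overlapped. The polysomal signal rose by 0.69 ± 0.20 (adjusted p = 0.026), and the total signal changed by 0.27 ± 0.20 (adjusted p = 0.425). This polysomal call ended without FD19 lysate 1, 2 or 3 (adjusted p = 0.0607, 0.118 and 0.0675) and without FD22 lysate 1 or 3 (0.0874 and 0.119), but not without FD22 lysate 2. The second probe set, 1371104_at, read 104, 128 and 92.6 at FD19, 183, 160.2 and 142 at FD22 and 159.8, 86.1 and 129 at P1 in total RNA. In polysomal RNA it read 71.3, 93.6 and 96.3 at FD19, 159, 155 and 166 at FD22 and 123, 91.6 and 106 at P1. Here both RNAs separated FD19 from FD22 without overlap. The polysomal signal rose by 0.85 ± 0.20 (adjusted p = 0.00595), and the total signal stood at 0.56 ± 0.20 (adjusted p = 0.06), which was called with a filter at the 60th percentile (adjusted p = 0.0483). Across birth both probe sets had negative polysomal values that were not called, -0.57 ± 0.20 (adjusted p = 0.0867) for 1371104_at and -0.52 ± 0.20 (adjusted p = 0.128) for 1388426_at. P1 levels did not differ detectably from those of FD19 for either probe set, with polysomal changes of 0.28 ± 0.20 (adjusted p = 0.323) and 0.17 ± 0.20 (adjusted p = 0.606). P1 lysate 1 gave the highest Srebf1 signal of its stage in both RNAs with both probe sets.

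Acly, which makes the acetyl-CoA for lipid synthesis, read 1213, 1076 and 1135 at FD19, 1338, 1344 and 1221 at FD22 and 1024, 1081 and 877 at P1 in total RNA. Polysomal signals were 833, 847 and 833 at FD19, 1327, 1161.5 and 1415 at FD22 and 1046, 979 and 867 at P1. The FD19 polysomal arrays were the lowest of all, close to each other and below every total RNA array of Acly. From FD19 to FD22 the polysomal signal rose by 0.63 ± 0.11 (adjusted p = 0.000743), while the total signal changed by 0.19 ± 0.11 (adjusted p = 0.298), not called although its arrays did not overlap. Across birth the polysomal signal fell by 0.43 ± 0.11 (adjusted p = 0.0229), and the total value was -0.39 ± 0.11 (adjusted p = 0.0602). The total value was called with a filter at the 60th percentile (adjusted p = 0.0465) and after quantile normalization (-0.46, adjusted p = 0.0183). The polysomal fall was called without FD22 lysate 2, but it ended without FD22 lysate 1 or 3 (adjusted p = 0.0779 and 0.0707) and without P1 lysate 2 or 3 (0.0523 and 0.0937).

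Acaca, the gene of the carboxylase that commits acetyl-CoA to fatty acid synthesis, showed small changes, none of them called between stages in the model as described. Its brighter probe set, 1370893_at, read 366, 334 and 318 at FD19, 446.5, 454 and 454 at FD22 and 446, 428 and 412 at P1 in total RNA, where all FD22 arrays and all P1 arrays were above those of FD19. The change to FD22 was 0.41 ± 0.14 (adjusted p = 0.0563). It was called with a filter at the 60th percentile (adjusted p = 0.0431) and after quantile normalization (0.45, adjusted p = 0.0261). From FD19 to P1 the change was 0.33 ± 0.14 (adjusted p = 0.0932). It was called with the replicate number as a block (adjusted p = 0.0478), a pairing taken from these data and not from the design. The polysomal signals were 335.5, 277.5 and 305 at FD19, 434, 323 and 432 at FD22 and 414, 327 and 299 at P1. FD22 lysate 2 gave the lowest polysomal value of its stage. With it the polysomal change to FD22 was 0.36 ± 0.14 (adjusted p = 0.0961), without it the change was 0.50 and called (adjusted p = 0.0328), and with the replicate number as a block it was called too (adjusted p = 0.0465). The dim probe set 1387538_at lay between 27.3 and 61.5 in all 18 arrays, and none of its stage changes was called.

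Fasn, which encodes the synthase that builds palmitate, rose before birth in both RNAs and with both probe sets. Probe set 1367707_at read 205, 204 and 163 at FD19, 692, 619.5 and 583 at FD22 and 748, 495 and 493 at P1 in total RNA. The 3 FD19 arrays were below every later array. This signal rose by 1.71 ± 0.24 (adjusted p = 7.47e-05) to FD22, and at P1 it was still 1.56 ± 0.24 above FD19 (adjusted p = 8.28e-05). The polysomal arrays gave 190.2, 146 and 177 at FD19, 589, 394 and 542 at FD22 and 539, 236 and 276 at P1, and the change to FD22 was 1.53 ± 0.24 (adjusted p = 0.000243). The brighter probe set 1367708_a_at read 1028, 1016 and 1044 at FD19, 1538, 1725 and 1381 at FD22 and 1501, 1175 and 1351 at P1 in total RNA, and 728, 721 and 794 at FD19, 1352, 1328 and 1449 at FD22 and 1365, 778 and 1057 at P1 in polysomal RNA. It rose by 0.58 ± 0.15 (adjusted p = 0.0131) in total and by 0.88 ± 0.15 (adjusted p = 0.000579) in polysomal RNA. The total RNA call of 1367708_a_at ended without FD22 lysate 2 (change 0.50, adjusted p = 0.0672) and without FD19 lysate 2 (0.57, adjusted p = 0.0526). Both probe sets rose from FD19 to FD22, by different amounts.

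After birth the Fasn values depended on P1 lysate 1, whose signals exceeded those of the other P1 lysates in both RNAs and with both probe sets. With it the polysomal change from FD22 to P1 was -0.60 ± 0.24 (adjusted p = 0.139) for 1367707_at and -0.40 ± 0.15 (adjusted p = 0.12) for 1367708_a_at. Without it the changes were -0.96 (adjusted p = 0.00572) and -0.60 (adjusted p = 0.0185), both called. After quantile normalization the change of 1367708_a_at was -0.51 (adjusted p = 0.0442) with all lysates. In total RNA the corresponding values were -0.15 ± 0.24 (adjusted p = 0.829) and -0.21 ± 0.15 (adjusted p = 0.558). Compared with FD19, the polysomal signal at P1 was higher by 0.92 ± 0.24 (adjusted p = 0.00679) for 1367707_at and by 0.47 ± 0.15 (adjusted p = 0.0249) for 1367708_a_at. Without P1 lysate 1 these changes were 0.57 (adjusted p = 0.0284) and 0.28 (adjusted p = 0.16). The call of 1367708_a_at also ended without FD19 lysate 1 or 2 (adjusted p = 0.0795 and 0.0921) or P1 lysate 3 (0.0766). In total RNA 1367708_a_at stood 0.37 ± 0.15 above FD19 at P1 (adjusted p = 0.0805), and it was called without P1 lysate 2 (0.47, adjusted p = 0.016).

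**Figure D2:**
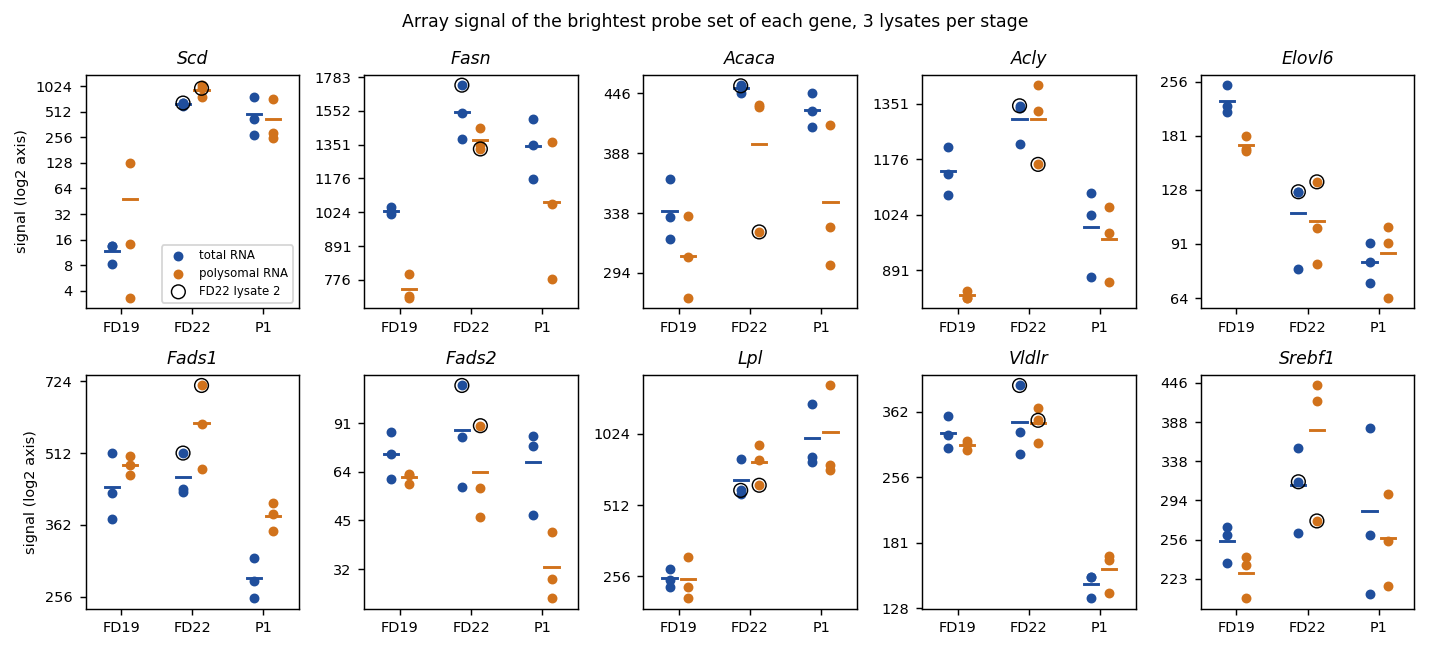
Signal of the brightest probe set of each gene on a log2 axis whose range differs between panels, by stage, in total RNA (blue) and polysomal RNA (orange), 1 point per lysate and a bar at the mean of 3. Black rings mark FD22 lysate 2, which held liver transcripts. Scd at FD19 lies between 3.3 and 127.5 and at 250.6 or above in every later array, Elovl6 declines from FD19, and Vldlr drops between FD22 and P1.

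Among the members Scd, whose product desaturates stearate and palmitate, changed most. It is measured by 1 probe set, 1370355_at, which in total RNA read 8.3, 13.6 and 13.6 at FD19, 649.9, 649 and 602 at FD22 and 767, 425 and 271 at P1. At FD19 these signals were close to the constant of 5.5 added before taking logs, and all 3 lay below the filter signal of 40.8, so that Scd passed the filter through the later stages. In polysomal RNA the signals were 14.1, 3.3 and 127.5 at FD19, 768, 968 and 1054 at FD22 and 726, 285 and 251 at P1. All 12 arrays of FD22 and P1 were above all 6 arrays of FD19. Lysate 3 of FD19 gave a polysomal signal of 127.5, far above the other FD19 arrays, and its total RNA signal was not raised. Between FD19 and FD22 total Scd rose by 5.22 ± 0.63 (adjusted p = 1.5e-05) and polysomal Scd rose by 5.03 ± 0.63 (adjusted p = 2.92e-05). The size of these changes is limited by the dim FD19 signals. With each FD19 array set to the higher of its signal and 40.8, a limit chosen after the data were seen, Scd at FD22 was at least 15.5-fold higher in total and at least 15.5-fold higher in polysomal RNA. The total change ran from 4.12 to 5.67 when the added constant was 26.3 or 0.9. The polysomal change was 6.14 without FD19 lysate 3 and 4.18 without FD19 lysate 2, and the call held in both cases. When FD22 lysate 2 was left out the changes were 5.20 and 4.99.

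From FD22 to P1 the Scd changes were not called, at -0.50 ± 0.63 (adjusted p = 0.764) in total and -1.29 ± 0.63 (adjusted p = 0.24) in polysomal RNA. The 3 P1 polysomal arrays lay below the 3 of FD22, although P1 lysate 1, at 725.6, came close to the lowest FD22 array at 768. In total RNA P1 lysate 1 was the highest array of any stage. At P1 Scd was still above FD19 by 4.72 ± 0.63 (adjusted p = 1.63e-05) in total and 3.74 ± 0.63 (adjusted p = 0.000177) in polysomal RNA. Against the same limit of 40.8 it was at least 10.9-fold and 6.25-fold higher. The polysomal value was 4.85 without FD19 lysate 3 and 2.89 without FD19 lysate 2. Rat Scd has close relatives, and cross-hybridisation of this probe set was not tested. Scd2, measured by its own probe set, changed less. Its total signal rose by 0.57 ± 0.18 (adjusted p = 0.0378) to FD22, and this call ended when any 1 of the 6 lysates was left out (adjusted p = 0.0657 to 0.121), and its polysomal signal fell by 0.90 ± 0.18 (adjusted p = 0.00463) across birth. The alveolar type II marker sums in polysomal RNA were 11205 to 16185 at FD19 and 21486 to 26577 at FD22, where Scd was higher too. At P1 the sums were 23245 to 33873, while the mean polysomal Scd signal was 420.3, against 930.0 at FD22. The part of type II cells in the Scd changes was not tested.

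Elovl6, which lengthens palmitate to stearate, moved opposite to Scd and Fasn. Probe set 1394401_at read 250.5, 219 and 211.5 at FD19, 127, 126.5 and 77.3 at FD22 and 70.4, 91.2 and 80.8 at P1 in total RNA. Polysomal arrays read 167, 181 and 165 at FD19, 79.5, 135 and 100.1 at FD22 and 64.1, 101 and 91.1 at P1. In both RNAs all FD19 arrays were above all later ones. From FD19 to FD22 the total signal fell by 1.04 ± 0.21 (adjusted p = 0.00201) and the polysomal signal fell by 0.71 ± 0.21 (adjusted p = 0.0277). The polysomal call ended without FD19 lysate 1, 2 or 3 (adjusted p = 0.0743, 0.115 and 0.0695) and without FD22 lysate 1 (0.121). The second probe set, 1388108_at, read 136, 155 and 148 at FD19, 54.5, 115 and 63.3 at FD22 and 53.1, 58.8 and 48.6 at P1 in total RNA. Its total signal fell by 0.93 ± 0.24 (adjusted p = 0.00981), and leaving out FD22 lysate 1 or 3 ended this call (adjusted p = 0.0625 and 0.0515). The highest FD22 total array of this probe set was lysate 2, at 115. In polysomal RNA 1388108_at read 126, 115 and 115 at FD19, 76.1, 87.9 and 66.2 at FD22 and 41.7, 77.2 and 74.4 at P1. Its polysomal change to FD22 was -0.60 ± 0.24 (adjusted p = 0.0945), which was called without FD22 lysate 2 (-0.70, adjusted p = 0.0387) and with the replicate number as a block (adjusted p = 0.0437).

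By P1 Elovl6 stood below FD19 by all 4 measures. The total changes from FD19 to P1 were -1.43 ± 0.21 (adjusted p = 4.82e-05) for 1394401_at and -1.36 ± 0.24 (adjusted p = 0.000249) for 1388108_at. In polysomal RNA they were -0.98 ± 0.21 (adjusted p = 0.00166) and -0.87 ± 0.24 (adjusted p = 0.00879). The polysomal call of 1388108_at ended without P1 lysate 1 (-0.61, adjusted p = 0.0718), the lowest polysomal array of that probe set. Across birth alone no Elovl6 change was called, and the values lay between -0.43 and -0.27.

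Fads1 and Fads2 lie next to each other in the rat genome and encode desaturases of polyunsaturated fatty acid synthesis. Fads1 read 513, 373 and 422 at FD19, 425, 512 and 429.8 at FD22 and 254, 309 and 277 at P1 in total RNA. For polysomal RNA the values were 461, 482 and 505 at FD19, 475, 709.5 and 590.4 at FD22 and 351, 403 and 381.5 at P1. All 6 P1 arrays lay below every array of the same RNA at the earlier stages. The change from FD19 to FD22 was 0.07 ± 0.15 (adjusted p = 0.818) in total and 0.27 ± 0.15 (adjusted p = 0.256) in polysomal RNA. Across birth total Fads1 fell by 0.69 ± 0.15 (adjusted p = 0.0126) and polysomal Fads1 fell by 0.62 ± 0.15 (adjusted p = 0.0155). FD22 lysate 2, which held liver transcripts, had the highest Fads1 signal of its stage in both RNAs. Without it the changes were -0.60 (adjusted p = 0.0522) and -0.48 (adjusted p = 0.0865), neither of them called. The calls also ended without P1 lysate 1 (adjusted p = 0.0711 in total and 0.0634 in polysomal RNA) and without P1 lysate 3 (0.0583 and 0.0521). The FD22 lysates do not enter the means of P1 against FD19, although they share in the estimate of the spread. Against FD19 total Fads1 at P1 fell by 0.62 ± 0.15 (adjusted p = 0.00465), and polysomal Fads1 stood at -0.35 ± 0.15 (adjusted p = 0.0956). The total call from FD19 to P1 ended with only the arrays numbered 2 and 3 (-0.43, adjusted p = 0.0678).

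Fads2 was dim throughout. It read 61.0, 72.6 and 84.8 at FD19, 82.3, 119 and 57.6 at FD22 and 82.8, 47.1 and 76.9 at P1 in total RNA, with overlapping stages and no call. In polysomal RNA it read 58.9, 62.6 and 63.2 at FD19, 46.5, 89.0 and 56.9 at FD22 and 41.8, 29.9 and 26.0 at P1. At P1 all 3 polysomal arrays were below all those of FD19 and FD22. Against FD19 the polysomal signal fell by 0.84 ± 0.27 (adjusted p = 0.0248), and against FD22 it stood at -0.85 ± 0.27 (adjusted p = 0.0597). The fall from FD19 ended without FD19 lysate 1, 2 or 3 (adjusted p = 0.0558, 0.0788 and 0.0726), without P1 lysate 2 or 3 (0.0555 and 0.107) and after quantile normalization (0.0607). FD22 lysate 2 had the highest signal of its stage for Fads2 as well, 118.6 in total and 89.0 in polysomal RNA.

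**Figure D3:**
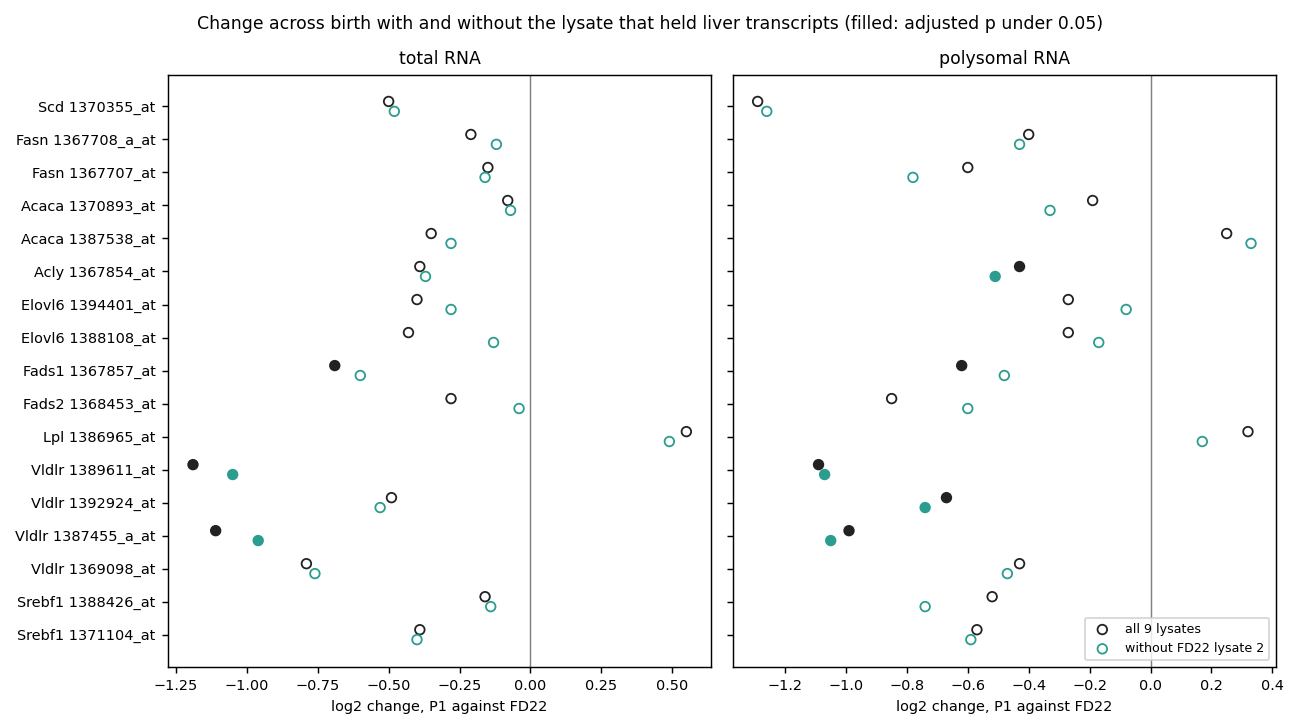
Log2 change from FD22 to P1 of the 17 probe sets with all 9 lysates (black) and without FD22 lysate 2 (green), in total RNA (left) and polysomal RNA (right). Filled circles had an adjusted p under 0.05. The Fads1 circles lose their filling without that lysate, while those of Vldlr 1389611_at and 1387455_a_at stay filled in both RNAs.

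Lpl, the lipoprotein lipase gene, rose before birth and stayed high. It read 274, 248 and 230.4 at FD19, 803, 590.5 and 573 at FD22 and 1362, 777 and 818 at P1 in total RNA. Polysomal signals were 231, 207 and 309 at FD19, 795, 621 and 915.5 at FD22 and 1637, 718 and 754 at P1. In both RNAs every FD22 and P1 array lay above every FD19 array. Between FD19 and FD22 total Lpl rose by 1.35 ± 0.27 (adjusted p = 0.00156) and polysomal Lpl rose by 1.62 ± 0.27 (adjusted p = 0.000355). From FD19 to P1 the changes were 1.91 ± 0.27 (adjusted p = 2.88e-05) and 1.95 ± 0.27 (adjusted p = 2.23e-05). Across birth the values were 0.55 ± 0.27 (adjusted p = 0.302) and 0.32 ± 0.27 (adjusted p = 0.553), with overlapping arrays. P1 lysate 1 was the highest Lpl array in both RNAs, and without it the polysomal value across birth was -0.06. None of the 4 calls ended when any 1 lysate of the stages compared was left out.

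Lpl is also expressed by macrophages, fat cells and heart muscle, and markers of these cells were followed beside it. Over the 4 of 5 macrophage markers on the array, none at 0, the sum in total RNA was 2041 to 2222 at FD19, 5657.5 to 8871 at FD22 and 5656 to 7495 at P1. In polysomal RNA it was 2424.5 to 4818, 4051 to 5732 and 4595.5 to 7746. In total RNA the macrophage sum moved with Lpl from FD19 to FD22, while its polysomal ranges at these stages overlapped. Most of the sum was Lyz2, at 1499.5 to 1687 at FD19 and 4818 to 7999 at FD22 in total RNA. Cd68, Mrc1 and Csf1r were also higher in every FD22 than in every FD19 total array. At FD22 Lyz2 in total RNA read 4818, 5540 and 7999 in lysates 1 to 3. This was the order of the type II marker Sftpc (5359, 6622 and 9139) and opposite to that of Lpl. At FD19 the orders of Lyz2 and Sftpc differed. The cell source of Lyz2 and the part of the macrophage sum in the Lpl change were not tested. All 5 adipocyte markers were on the array but only Plin1 and Cfd passed the filter, and the sum in total RNA was 76.9 to 117, 109.8 to 191.5 and 105 to 147. Adipoq, a defining gene of fat cells, stayed between 13.4 and 49.4 in all arrays. Cidec, a fat droplet gene, read 44.4, 17.4 and 10.5 in the P1 polysomal arrays and at most 5.7 elsewhere. The heart and muscle sum in total RNA was 1023 to 2506 at FD19, 685 to 2572 at FD22 and 683.5 to 1191 at P1, with overlapping ranges. In polysomal RNA it was 1069.5 to 2709, 548 to 4019.7 and 714 to 1567, also overlapping. P1 lysate 1 gave the highest P1 sum in both RNAs, as it did for Lpl. Sum and Lpl were also highest in the same lysate at FD19 in total RNA and at FD22 in polysomal RNA. At FD19 in polysomal RNA the sum was highest in lysate 1 and Lpl in lysate 3. At FD22 in total RNA lysate 3 had the highest sum, 2572, and the lowest Lpl signal, 573. The part of muscle transcripts in the Lpl signals was not tested. The endothelial sum in total RNA, over 4 of 5 markers including Gpihbp1, the capillary anchor of Lpl, was 1624 to 1676, 2532 to 2834 and 2479.9 to 2678.

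Vldlr, the receptor for very-low-density lipoprotein, fell across birth by 2 of its 4 probe sets in total RNA and by 3 of 4 in polysomal RNA. Probe set 1389611_at read 320.0, 298 and 353 at FD19, 324, 416 and 289.8 at FD22 and 135, 151 and 151 at P1 in total RNA, and 309, 295 and 305 at FD19, 306, 346 and 369.8 at FD22 and 165.5, 139 and 169 at P1 in polysomal RNA. Every P1 array was below every earlier array, with no overlap, and FD19 and FD22 overlapped. From FD22 to P1 the total signal fell by 1.19 ± 0.14 (adjusted p = 8.31e-05) and the polysomal signal fell by 1.09 ± 0.14 (adjusted p = 0.000133). With FD22 lysate 2 left out the changes were -1.05 (adjusted p = 0.00135) and -1.07 (adjusted p = 0.000662). Probe set 1387455_a_at read 275, 301 and 280.2 at FD19, 285, 329.6 and 202 at FD22 and 133, 123 and 107 at P1 in total RNA. The polysomal arrays gave 202.5, 233.5 and 254 at FD19, 215, 207.5 and 268 at FD22 and 139, 92.4 and 112 at P1. Across birth the total signal of this probe set fell by 1.11 ± 0.18 (adjusted p = 0.00152) and its polysomal signal fell by 0.99 ± 0.18 (adjusted p = 0.00237), and both calls held without FD22 lysate 2. Between FD19 and FD22 neither probe set changed detectably, with total values of 0.07 ± 0.14 (adjusted p = 0.807) and -0.10 ± 0.18 (adjusted p = 0.789).

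The Vldlr probe set 1392924_at was highest at FD22. It read 160.0, 198 and 194.5 at FD19, 251, 266 and 332 at FD22 and 191, 200.5 and 204 at P1 in total RNA, and 169.5, 151 and 174 at FD19, 262.5, 238 and 284 at FD22 and 131, 165 and 195 at P1 in polysomal RNA, with no overlap between FD22 and the other stages. To FD22 the total signal rose by 0.60 ± 0.15 (adjusted p = 0.011) and the polysomal signal rose by 0.65 ± 0.15 (adjusted p = 0.00696). The total rise ended without FD19 lysate 1 or FD22 lysate 3 (adjusted p = 0.0742 and 0.0645), and the polysomal rise without FD19 lysate 2 (0.0509). Across birth its polysomal signal fell by 0.67 ± 0.15 (adjusted p = 0.0109), and leaving out P1 lysate 1 ended this call (-0.53, adjusted p = 0.0681), and its total value was -0.49 ± 0.15 (adjusted p = 0.0876). Against FD19 the P1 value of 1392924_at was 0.11 ± 0.15 (adjusted p = 0.664), whereas 1389611_at was lower by 1.12 ± 0.14 (adjusted p = 9.95e-06) and 1387455_a_at by 1.20 ± 0.18 (adjusted p = 5.95e-05). The dimmest probe set, 1369098_at, lay between 48.8 and 138.1, and none of its stage changes was called. Its total value was -0.79 ± 0.23 (adjusted p = 0.0662) across birth and -0.61 ± 0.23 (adjusted p = 0.0591) from FD19 to P1. The first was called without FD22 lysate 1 (-0.96, adjusted p = 0.0481). The second was called without FD19 lysate 1 (adjusted p = 0.0368), without P1 lysate 2 (0.0416) and with the replicate number as a block (0.047). Which transcripts each probe set detects was not analysed here.

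Whether the mRNAs were found more or less in large polysomes was read from the log2 ratio of polysomal to total signal within the stages. Because both RNAs were scaled to the same trimmed mean, the ratio is relative to the average mRNA of the array. Averaged over the 3 stages, 1 of the 17 probe sets had a higher and 5 a lower polysomal signal, where 46.4% of all probe sets were called (18.8% higher and 27.6% lower). The share of members called lower was close to that of all probe sets. At FD19 alone 0 were higher and 2 lower, where 20.9% of all were called (9.97% higher and 10.9% lower). At FD22 limma called 0 higher and 0 lower, with 2 members at an unadjusted p under 0.05, where 15.4% of all were called (6.76% higher and 8.6% lower). At P1 0 were higher and 2 lower, where 18.5% were called (8.12% higher and 10.4% lower). Total and polysomal arrays did not overlap for 5 members at FD19 (43.0% of all), 3 at FD22 (29.6%) and 2 at P1 (35.8%). The median mean ratio of the 17 was -0.16, against -0.09 for all probe sets. Leaving out FD22 lysate 2, the mean ratio was called for 3 probe sets, 1 higher and 2 lower.

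Fads1 was the member with the higher polysomal signal. Its ratio in lysates 1, 2 and 3 was -0.15, 0.37 and 0.26 at FD19, 0.16, 0.47 and 0.45 at FD22 and 0.46, 0.38 and 0.46 at P1, positive in all lysates but FD19 lysate 1. The mean ratio was 0.32 ± 0.09 (adjusted p = 0.00655). At single stages it was 0.36 ± 0.15 (adjusted p = 0.114) at FD22 and 0.43 ± 0.15 (adjusted p = 0.0548) at P1, the latter called with a filter at the 60th percentile (adjusted p = 0.0442). Both were called with the lysate as a block, which compares the 2 arrays of each lysate directly (adjusted p = 0.0427 and 0.0176).

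Among the synthesis genes both Fasn probe sets, Acly and 1 of 2 Acaca probe sets had a called negative mean ratio. The Fasn ratios of 1367708_a_at were -0.50, -0.49 and -0.39 at FD19, -0.19, -0.38 and 0.07 at FD22 and -0.14, -0.59 and -0.35 at P1. Those of 1367707_at were -0.10, -0.47 and 0.12, -0.23, -0.64 and -0.11 and -0.47, -1.05 and -0.82. FD22 lysate 2 and P1 lysate 2 gave the lowest ratio of their stages with both Fasn probe sets. The mean ratio was -0.33 ± 0.09 (adjusted p = 0.00548) for 1367708_a_at and -0.42 ± 0.14 (adjusted p = 0.0193) for 1367707_at. For 1367707_at this call ended without FD22 lysate 2 (-0.37, adjusted p = 0.0567) and without FD19 lysate 2 (-0.37, adjusted p = 0.072). At P1 the ratio of 1367707_at was -0.78 ± 0.24 (adjusted p = 0.0298), which ended without P1 lysate 2 or 3 (adjusted p = 0.154 and 0.127). With the lysate as a block 1367708_a_at was called at P1 as well (-0.36, adjusted p = 0.0281), so that 4 member probe sets were called there. At FD19 the ratio of 1367708_a_at was -0.46 ± 0.15 (adjusted p = 0.0393), a call that ended without FD19 lysate 1, 2 or 3 (adjusted p = 0.152, 0.186 and 0.135) or with no filter (0.0568).

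Acly had its lowest ratios at FD19, -0.54, -0.34 and -0.44, with ratios of -0.01, -0.21 and 0.21 at FD22 and 0.03, -0.14 and -0.02 at P1. All FD19 lysates lay below all later ones, and at FD22 and P1 the ratios lay on both sides of 0. The FD19 ratio was -0.44 ± 0.11 (adjusted p = 0.00992), and the call ended without FD19 lysate 1, 2 or 3 (adjusted p = 0.0811, 0.0501 and 0.0819). The mean ratio, -0.16 ± 0.07 (adjusted p = 0.0478), was close to the threshold, and the call ended without any 1 lysate except FD22 lysate 3 (adjusted p = 0.0518 to 0.155) and with no filter (0.0576). Without FD22 lysate 2 the value was -0.13 (adjusted p = 0.155). For Acaca 1370893_at the ratio was negative in all 9 lysates, from -0.48 to -0.04, with a mean of -0.22 ± 0.08 (adjusted p = 0.034). Without FD22 lysate 2, its lowest, the mean was -0.17 (adjusted p = 0.105), and the call also ended without FD19 lysate 2 or 3 (adjusted p = 0.0958 and 0.0583) or P1 lysate 2 or 3 (0.0804 and 0.0849). The other Acaca probe set, 1387538_at, had a mean ratio of -0.06 ± 0.14 (adjusted p = 0.74).

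Fads2 had its lowest mean ratio of the stages at P1, with -0.90, -0.57 and -1.39 in the 3 lysates, after -0.05, -0.20 and -0.39 at FD19 and -0.76, -0.39 and -0.02 at FD22. All 9 ratios were negative. The P1 ratio was -0.95 ± 0.27 (adjusted p = 0.0192) and the mean ratio -0.52 ± 0.16 (adjusted p = 0.0111). The P1 call ended without P1 lysate 1 or 3 (adjusted p = 0.0614 and 0.193) and after quantile normalization (-0.74, adjusted p = 0.0948), where the mean ratio was -0.32 (adjusted p = 0.132). Fads1 and Fads2, neighbours in the genome, thus had mean ratios of opposite sign. Elovl6, Lpl, Srebf1, Scd and the Vldlr probe sets had no called ratio. The Vldlr probe set 1369098_at was called for its mean ratio of -0.29 with the lysate as a block (adjusted p = 0.0425), without FD22 lysate 1 (-0.37, adjusted p = 0.0437) and without P1 lysate 1 (-0.36, adjusted p = 0.0447). The probe set 1387455_a_at was called without FD22 lysate 3 (-0.31, adjusted p = 0.0156). The Scd ratio at FD19 ranged from -1.12 to 2.80 among the 3 lysates, and both of its signals there were low in lysates 1 and 2.

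The ratio itself did not change detectably between stages for any member. In limma's test of the ratio change, 0 of the 17 probe sets were called in each of the 3 comparisons, where 0.0% of all probe sets were called for FD22 against FD19, 0.0138% for P1 against FD22 (all lower) and 0.115% for P1 against FD19 (0.00461% higher and 0.111% lower). At an unadjusted p under 0.05 the members counted 2, 0 and 1. With the lysate as a block they counted 2, 1 and 3, and 0 were called. The smallest p among the members was that of Acly from FD19 to FD22, with a ratio change of 0.44 ± 0.16 (adjusted p = 0.999). From FD19 to P1 Acly stood at 0.40 ± 0.16 (adjusted p = 0.39). Thus Srebf1 and Acly, whose polysomal but not total signals were called from FD19 to FD22, were not shown to change their ratio.

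**Figure D4:**
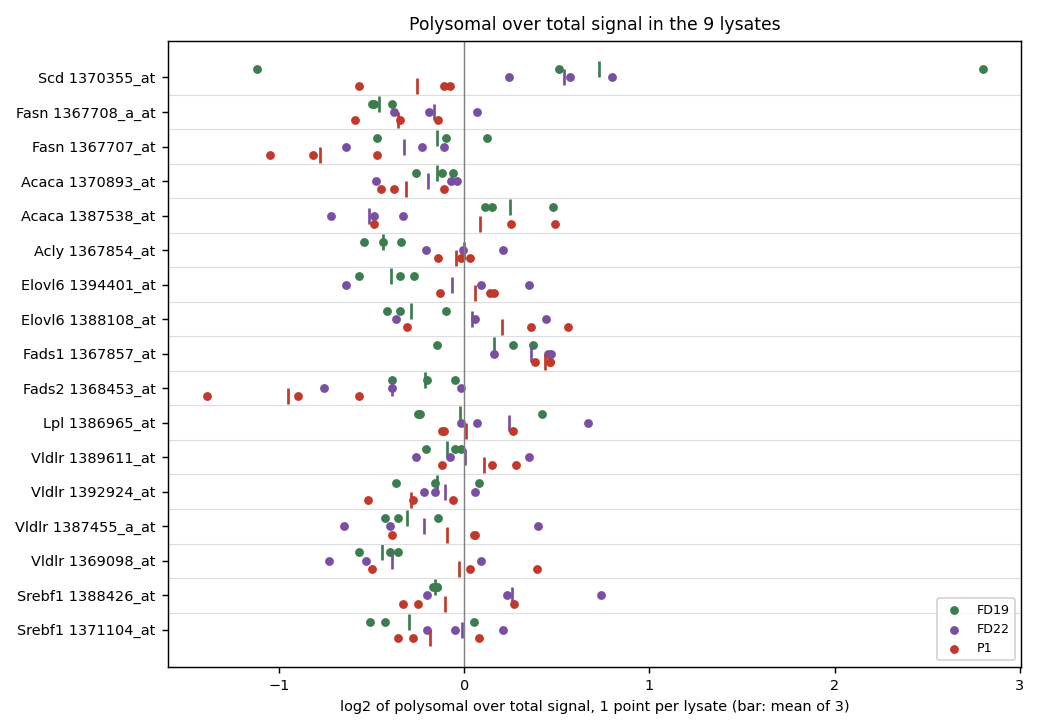
Log2 of polysomal over total signal for the 17 probe sets, 1 point per lysate and a vertical bar at the mean of 3, at FD19 (green), FD22 (purple) and P1 (red). Fads1 lies to the right of 0 in all lysates but 1, Fads2 and Acaca 1370893_at lie to the left in all 9, and Scd at FD19 spreads from -1.12 to 2.80.

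Other genes of lipid metabolism were followed in 9 lists, counted by gene with the brightest probe set. Named genes as a whole were called higher in 9.68% and lower in 10.4% of cases from FD19 to FD22 in total RNA, and in 10.1% and 9.56% in polysomal RNA. Across birth these shares were 2.62% and 2.32% in total and 4.74% and 5.8% in polysomal RNA. Each count below stands beside these shares, and none was tested as a set. Of 15 measured genes of lipoprotein and fatty acid uptake, 4 rose and 0 fell to FD22 in total RNA and 3 rose and 0 fell in polysomal RNA. The list's median change was 0.39 in total and 0.14 in polysomal RNA, against -0.01 and -0.02 for all genes. Cd36, a fatty acid translocase, went from 185 ± 18.7 (SD, n = 3) to 780.3 ± 154 in total RNA, a rise of 2.03 ± 0.21 (adjusted p = 3.36e-06), and its polysomal signal rose by 2.00 ± 0.21 (adjusted p = 6.76e-06). Apoe, an apolipoprotein gene, rose by 1.58 ± 0.19 (adjusted p = 1.67e-05) in total and 1.34 ± 0.19 (adjusted p = 0.000105) in polysomal RNA. Without FD22 lysate 2 the list counted 3 and 4 genes higher. Across birth 2 genes of the list rose and 1 fell in total RNA, which became 1 and 1 without that lysate, and 1 rose in polysomal RNA. Angptl4, which encodes an inhibitor of Lpl, went from 21.2 ± 15.5 to 237 ± 116 in total RNA, a rise of 3.24 ± 0.39 (adjusted p = 8.31e-05), and rose by 3.12 ± 0.39 (adjusted p = 8.49e-05) in polysomal RNA. Its mean signals in the fetal groups, 21.2 to 39.4, lay below 40.8, so it passed the filter through P1. With each FD22 array set to at least 40.8, Angptl4 at P1 was at least 5.41-fold higher in total and at least 9.36-fold higher in polysomal RNA. These calls of Cd36, Apoe and Angptl4 held when any 1 lysate of the stages compared was left out.

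Among 18 measured lipogenic regulators, 3 rose and 0 fell to FD22 in total RNA and 2 rose and 0 fell in polysomal RNA. The list's medians were 0.30 and 0.16. Insig1, a target and brake of sterol regulatory element-binding proteins, went from 419 ± 7.3 to 903.5 ± 97.2 in total RNA, a rise of 1.09 ± 0.16 (adjusted p = 0.000143). Its polysomal signal rose by 0.95 ± 0.16 (adjusted p = 0.00054) to FD22 and fell by 1.56 ± 0.16 (adjusted p = 1.32e-05) across birth, to 319 ± 60.3. Total Insig1 was not called across birth, with 683.7 ± 131 at P1, and was 0.68 ± 0.16 above FD19 there (adjusted p = 0.00442). From FD19 to P1 its ratio of polysomal to total signal changed by -1.29 ± 0.23 (adjusted p = 0.0459). That call ended without any 1 lysate of these stages (adjusted p = 0.117 to 0.265). Cebpa, a transcription factor of fat and type II cells, rose by 0.89 ± 0.18 (adjusted p = 0.00204) in total RNA. Across birth 0 of these regulators rose and 1 fell in each RNA, and the fall in total RNA, that of Cebpa, ended without FD22 lysate 2 (adjusted p = 0.13) as it did without each other lysate except FD22 lysate 3.

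Of 8 measured genes of acetyl-CoA and NADPH supply, 0 rose and 1 fell to FD22 in total RNA and 1 rose in polysomal RNA, and limma called 0 across birth in either RNA, with 0 and 2 genes at an unadjusted p under 0.05 in total and polysomal RNA. Of 7 lipogenic helpers, 1 rose to FD22 in each RNA. It was Mid1ip1, an activator of acetyl-CoA carboxylase, at 0.78 ± 0.10 (adjusted p = 3.97e-05) in total and 0.57 ± 0.10 (adjusted p = 0.000837) in polysomal RNA. Across birth limma called 0 helpers in either RNA, with 0 and 0 at an unadjusted p under 0.05. Of 6 measured elongation genes, 0 rose and 2 fell to FD22 in each RNA. They were Hsd17b12, a reductase gene of the elongation cycle, and the dehydratase gene Hacd2. Hsd17b12 stood at -0.68 ± 0.13 (adjusted p = 0.00107) in total and -0.88 ± 0.13 (adjusted p = 0.000117) in polysomal RNA. Hacd2 stood at -0.84 ± 0.18 (adjusted p = 0.0031) in polysomal RNA. The total RNA call of Hacd2, -0.68 ± 0.18 (adjusted p = 0.014), ended without FD19 lysate 1 or 3 (adjusted p = 0.0522 and 0.0565) and FD22 lysate 3 (0.08).

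Desaturation genes other than the members counted 2 higher and 0 lower of 4 in total RNA to FD22, which became 1 and 0 without FD22 lysate 2, and 1 and 0 in polysomal RNA. Fatty acid activation genes counted 2 higher and 1 lower of 10 in total RNA, and 3 and 1 in polysomal RNA, which became 1 and 0 in polysomal RNA without FD22 lysate 2. The lower gene in both RNAs was Slc27a3, with means of 51.2 and 46.9 at FD19. Its means at FD22, 18.4 and 16.7, and at P1 lay below 40.8, so it passed the filter only through FD19, where it was high. Its fall is therefore no support for a change of the list. Both calls ended without FD19 lysate 1, 2 or 3 and without FD22 lysate 2. Acsl4, an acyl-CoA synthetase gene, rose by 1.01 ± 0.15 (adjusted p = 0.000123) in total and 1.22 ± 0.15 (adjusted p = 2.85e-05) in polysomal RNA. Across birth limma called 0 activation genes in either RNA, with 2 and 2 at an unadjusted p under 0.05. A list for phosphatidylcholine and triglyceride synthesis, which also held the lipase gene Pnpla2, had 19 measured genes. Of these, 2 rose and 1 fell to FD22 in total RNA, and 2 rose and 0 fell in polysomal RNA. With FD22 lysate 2 left out these counts were 2 and 0 in total and 2 and 1 in polysomal RNA. Lpcat1, which remodels surfactant phosphatidylcholine, rose by 1.19 ± 0.16 (adjusted p = 3.61e-05) in total and 1.19 ± 0.16 (adjusted p = 4.72e-05) in polysomal RNA, and the triglyceride lipase gene Pnpla2 rose by 1.44 ± 0.29 (adjusted p = 0.00179) and 1.36 ± 0.29 (adjusted p = 0.00298). Across birth 1 gene of this list rose in total RNA and 1 rose and 1 fell in polysomal RNA. Without FD22 lysate 2 these counts were 0 in total RNA and 1 and 0 in polysomal RNA. The rise across birth was that of the lipase gene Pnpla2 in both RNAs, not of a synthesis gene.

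Of 17 measured fatty acid oxidation genes, 2 rose and 1 fell in total RNA and 3 rose and 1 fell in polysomal RNA across birth. Cpt1a, which admits fatty acids to mitochondria, went from 214 ± 12.5 at FD22 to 707 ± 100.2 at P1 in total RNA, a rise of 1.69 ± 0.17 (adjusted p = 9.73e-06), and rose by 1.44 ± 0.17 (adjusted p = 4.29e-05) in polysomal RNA. Ech1, an enoyl-CoA isomerase gene, rose by 0.66 ± 0.11 (adjusted p = 0.00177) in total and 1.02 ± 0.11 (adjusted p = 1.74e-05) in polysomal RNA, and the dehydrogenase gene Acadl rose by 1.02 ± 0.17 (adjusted p = 0.000917) in polysomal RNA. Eci1, another enoyl-CoA isomerase gene, fell by 0.74 ± 0.11 (adjusted p = 0.000719) in total RNA. These 6 calls held when any 1 lysate of the stages compared was left out. The polysomal fall was that of Eci1 too, by 0.40 ± 0.11 (adjusted p = 0.0303), and this call ended without FD22 lysate 2 (adjusted p = 0.118), FD22 lysate 1 (0.0635) or P1 lysate 1, 2 or 3 (0.0576, 0.101 and 0.0768). In the earlier interval 2 genes of the list rose in total RNA, and 4 rose and 1 fell in polysomal RNA, which became 4 and 0 without FD22 lysate 2.

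**Figure D5:**
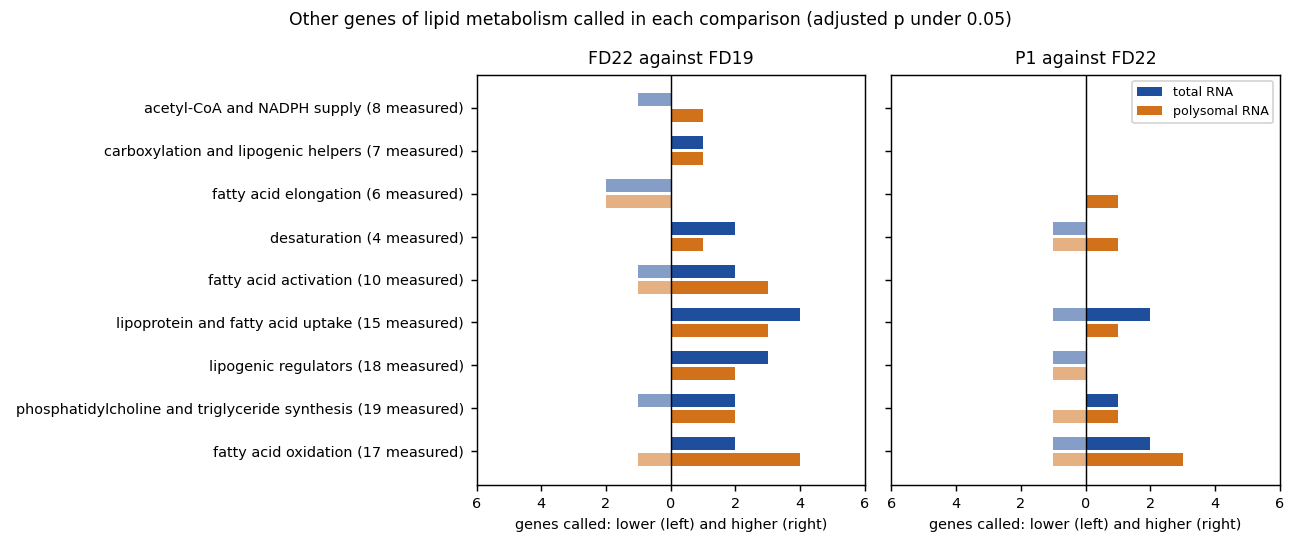
Number of genes called lower (left of 0, pale) and higher (right of 0) at an adjusted p under 0.05 in 9 lists of lipid metabolism, the members left out, for FD22 against FD19 and P1 against FD22, in total RNA (blue) and polysomal RNA (orange). Lipoprotein and fatty acid uptake has 4 genes higher at FD22 in total RNA, and fatty acid oxidation has 3 higher across birth in polysomal RNA.

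The mean polysomal ratio was called higher for 25.0% and lower for 22.2% of named genes. Of the uptake genes 6 of 15 were higher and 0 lower, although the list's median was 0.0, as for all genes. Examples were 1.41 ± 0.19 (adjusted p = 7.89e-06) for Fabp4, a fatty acid binding protein gene, 0.62 ± 0.12 (adjusted p = 0.000452) for Cd36 and 0.43 ± 0.11 (adjusted p = 0.00403) for Apoe. Without FD22 lysate 2 the uptake list counted 5 higher and 1 lower. Of the phosphatidylcholine and triglyceride genes 6 of 19 were higher and 2 lower, and the lower ones included the choline phosphotransferase gene Chpt1 at -0.89 ± 0.10 (adjusted p = 2.08e-06). The other lists counted, higher and lower, 6 and 1 of 17 oxidation genes, 5 and 4 of 18 regulators, 3 and 1 of 6 elongation genes and 3 and 0 of 10 activation genes. Desaturation counted 2 and 0 of 4, the helpers 2 and 2 of 7 and acetyl-CoA and NADPH supply 1 and 1 of 8. Without FD22 lysate 2 the counts were 4 and 2 for phosphatidylcholine and triglyceride synthesis, 5 and 1 for oxidation and 2 and 0 for the helpers, and the same as before for the other 5. Differences between lists were not tested. Mid1ip1 stood at 0.67 ± 0.06 (adjusted p = 6.87e-08). These 5 calls held when any 1 lysate was left out.

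Correlations of log2 signal over the 18 arrays describe how the members and other genes ran together. The arrays share stages, lysates and scaling, so these values carry no p. Among the brightest probe sets of the members, Scd ran closest to Lpl (r = 0.889) and most opposite to Elovl6 (-0.817). Fasn ran with Acaca (0.827), Scd (0.739) and Acly (0.714), and Srebf1 with Acly (0.732) and Fasn (0.691). Fads1 ran with Vldlr (0.802), and Lpl against Elovl6 (-0.9). Of 11590 named genes, those most like Scd were Lcp1 (0.973), C3 (0.968), Fetub (0.965), Kcnj15 (0.963) and Hopx (0.962). Those most like Fasn were Atp7a (0.914), Nt5e (0.908), Foxo3 (0.906), Rig1 (0.895) and Irf2 (0.894), and those most like Srebf1 were Ltbp1 (0.854), Stat2 (0.845), Kmt5b (0.835), Nbea (0.827) and Rprml (0.812).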

How the data were processed

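The deposited table holds a linear intensity for each probe set and array, which the authors obtained with GCOS 1.4, per the submitters' processing notes. The signal algorithm and scaling target are not given in the sources used here. The 2% trimmed mean was 150.0 in every array, and nothing was rescaled. After removal of 57 controls from 31099 probe sets, those above 40.8 (the 40th percentile) in at least 3 arrays were kept. Of the 31042 others the platform annotation gave 20826 a single gene, 436 several and 9780 none, and no probe set with several genes included a member.

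Log2(signal + 5.5), the constant being the 10th percentile, was modelled in limma 3.58.1 (R 4.3.3; eBayes with trend) as 6 group means, leaving 12 residual df. Every p-value is limma's, with Benjamini-Hochberg adjustment over the kept probe sets. The code was tested on simulated data. Python 3.11.15 was used for tables.

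The members and lists were chosen with earlier results of these data known. All members are described. From a list, at most 4 called genes with the smallest p in a comparison could be named, and for Scd, Fasn and Srebf1 the 5 most correlated genes. Markers named singly (Alb, Afp, Apob, Sftpc, Adipoq, Cidec, Lyz2, Cd68, Mrc1, Csf1r) were picked after their values were seen.

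Per the labels, total and polysomal arrays of equal number and stage share a lysate. In all 9 lysates both arrays deviated together (r = 0.186 to 0.488), so ratios were also fitted with the lysate as a block (6 residual df). Between stages, equal numbers exceeded r = 0.1 in all 3 pairs for the polysomal arrays of FD19 with FD22 (0.226 to 0.498). They did so too for the total arrays of FD19 with P1 (0.119 to 0.313). This pairing comes from the data alone, as the litters differ between stages. The number then served as a block (10 residual df), and calls made only with it are no separate support for a change. Other alternatives were the constant, the filter, quantile normalization, each lysate left out in the comparisons that involve its stage, and only arrays numbered 2 and 3. The closing section gives their effect.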

Additional observations from a re-analysis of the deposited data

Results flagged for a closer look

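The ratios of 2 probe sets had opposite signs in all lysates of 2 stages. The log2 ratio of polysomal to total Scd signal was positive in all 3 FD22 lysates (0.24, 0.57 and 0.80) and negative in all 3 P1 lysates (-0.08, -0.57 and -0.11). The change of the Scd ratio from FD22 to P1 was -0.79 ± 0.89, and limma's test of it gave an adjusted p of 1.0. The ratio of the dim Acaca probe set 1387538_at was positive in all 3 FD19 lysates (0.11, 0.48 and 0.15) and negative in all 3 FD22 lysates (-0.72, -0.49 and -0.33). Its change was -0.77 ± 0.34, with an adjusted p of 0.999 in limma's test. Neither difference was called.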

How the results depend on the processing

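Of 2745 values of the members recomputed under alternatives, 2628 stayed on their side of the threshold, 80 fell short of it and 37 newly passed it. Among the 2628, 119 changed sign, none of them called under either setting, and 0 called values changed sign. Counts of called probe sets that moved by over 1.5 times were the following. With the replicate number as a replicate block, 6 instead of 3 were called in total RNA from FD22 to P1. In polysomal RNA 8 instead of 5 were called there. Acaca 1370893_at (adjusted p = 0.0243) and Srebf1 1371104_at (0.0478) were newly called in total RNA from FD19 to FD22. In none of these comparisons did equal numbers exceed r = 0.1 in all 3 pairs, so the numbers do not pair the samples there. With the lysate as a replicate block the FD22 ratio was called for 1 instead of 0 and the P1 ratio for 4 instead of 2. The blocks ended 0 calls and added 16. The FD19 ratio was called for 1 instead of 2 with no filter and for 0 with the arrays numbered 2 and 3 only, and leaving out a lysate gave 0 each time. The P1 ratio was called for 1 after quantile normalization, for 1 with the arrays numbered 2 and 3 only, and for 0 to 1 when a lysate was left out. Leaving out a lysate gave 3 to 7 instead of 6 for the mean ratio and 3 to 5 instead of 5 for polysomal RNA across birth, with 3 called without P1 lysate 3. The mean ratio count was 3 without FD19 lysate 2 and 3 without FD22 lysate 2. The cause was not tested. Of 1467 list counts, 235 moved by over 1.5 times. Signals near the added constant of 5.5 limit the size of the Scd change.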
